A study of Mus with 9 samples.

Results

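The proteasome genes described here are the 50 mouse genes whose symbols begin with Psma, Psmb, Psmc, Psmd, Psme, Psmf or Psmg followed by a number, with pseudogenes left out, among 22206 probe sets of an expression array. Membership was set by symbol alone, under a rule chosen with earlier results of these data known. Each gene was read by 1 probe set, which is the group of short array probes placed against one gene's transcripts. They comprised 19 core genes, 20 genes of the regulatory particle, 6 genes of activators and an inhibitor, 4 genes of core assembly chaperones, and Psmc3ip, which encodes a meiotic recombination factor (Hop2) and bears the symbol only because its protein binds Psmc3.

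The proteasome is the barrel-shaped protease that degrades most short-lived and damaged proteins of the cytoplasm and nucleus. Its core particle stacks outer rings of alpha subunits, which gate the entry, around inner rings of beta subunits, some of which carry the catalytic sites; the regulatory particle recognises ubiquitin chains, removes them and unfolds the substrate with a ring of ATPases. Interferon induces alternative catalytic subunits and the PA28 activator, which together form the immunoproteasome and change the peptides made for antigen presentation. In neurons, proteasomes also act at synapses, where protein degradation takes part in plasticity.

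Hippocampal RNA of male mice was measured in 3 groups of 3 arrays: vehicle-treated SAMR1, a senescence-resistant strain; vehicle-treated, hereafter nontreated, SAMP8, the senescence-prone strain; and SAMP8 given trigonelline (TG), a plant alkaloid, by mouth at 5 mg/kg for 30 days and through 8 further days of behavioral testing. An age of 16 weeks is listed for each group. The methods state this age and male sex for the SAMP8 mice and do not repeat them for SAMR1. They describe an acclimatization period, the treatment and the testing before the tissue was taken, so 16 weeks may not be the age at sampling. The mice were housed singly and were trained in a water maze before the tissue was taken. The 3 samples of each group were chosen at random from a larger group. TG was not given to SAMR1 in these samples, and SAMR1 and SAMP8 differ in strain as well as in their ageing. The vehicle is named as water in one description and saline in another, the series text speaks of duplicate RNA samples where the records give 3 arrays per group, and a description attached to the records concerns a macrophage line and was not used.

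All values below are the authors' deposited averages of each group as log2 signal, so a difference of 1 is a doubling. An average carries no spread, and values per array were not analysed here, so no difference could be set against the spread between arrays and no test was made. A gene was counted as higher or lower where 2 averages differed by more than 1.2-fold (0.263 on the log2 scale); the share of all 22206 probe sets beyond the same limit is given with the counts over the 50 genes, and counts of smaller groups can be read against it. Over all probe sets the median average was 6.09 for SAMR1, 6.04 for nontreated SAMP8 and 6.07 for the TG-treated mice. All 8 neuron markers checked lay above the low-signal range (the 25% of probe sets with a mean over the groups below 4.40), among them Neurod6 at 14.86, 14.85 and 14.88 and Camk2a at 19.93 in each group, but 5 of the 8 were higher in SAMP8 than in SAMR1 and 5 were lower after TG. The value of 19.93 was also the highest average of any probe set in each group, so the equal values of Camk2a do not show equal levels. In tissue RNA, fewer cells of a type and less RNA per cell cannot be told apart.

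To ask how the proteasome genes stood after TG, TG-treated SAMP8 was set against nontreated SAMP8. Of the 50 genes, 17 were higher and 5 lower past 1.2-fold, where 19.6% of all probe sets were higher and 18.5% lower. The median difference of the 50 was 0.135, and that of all probe sets was 0.01. The core was the class with most of these genes, with 10 of 19 higher and 1 lower (median 0.29), whereas 4 of 20 regulatory genes were higher and 1 lower (median 0.065, and -0.003 after centring by signal and gene length). Among the 22 genes past the limit, 77.3% were higher. After centring the differences within classes of similar signal this share was 91.3%. It was 80.0% after centring by signal and gene length, and 71.4% after centring the averages on their median. At 1.5-fold, 3 genes were higher (Psmb3, Psmb5 and Psma2) and 1 lower (Psme4), where 4.48% of all probe sets were higher and 3.74% lower, and at 1.1-fold 25 were higher and 7 lower, where 32.4% and 31.0% of all were.

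To ask how the strains differed without TG, nontreated SAMP8 was set against SAMR1. Here 17 of the 50 were higher in SAMP8 and 2 lower, where 20.4% of all probe sets were higher and 20.4% lower. The median difference was 0.15 against 0 over all probe sets. Regulatory genes accounted for 7 of the 17 and none of the lower ones (median 0.18), and core genes for 7 higher and 2 lower (median 0.14). These strain medians went to 0.06 for the regulatory genes after centring by signal and to 0.04 for the core after centring by signal and gene length. The share of higher genes among those past the limit went from 89.5% to 72.2% and 75.0% under these centrings. At 1.5-fold, 2 genes were higher (Psmd10 and Psma3) and 0 lower, where 5.0% of all probe sets were higher and 6.08% lower, and at 1.1-fold 27 were higher and 8 lower, where 33.0% and 32.5% of all were.

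Between TG-treated SAMP8 and SAMR1, 26 of the 50 were higher in TG-treated SAMP8 and 1 (Psme3) lower, where 20% of all probe sets were higher and 20.5% lower. The median difference was 0.27, and over all probe sets it was -0.01. In the core, 14 of 19 were higher and 0 lower (median 0.58). The 3 comparisons share arrays: each uses arrays that another uses, and this difference is the sum of the other 2, so it is not a further measurement. At 1.5-fold, 15 genes were higher and 0 lower, where 5.62% of all probe sets were higher and 4.83% lower, and at 1.1-fold 32 were higher and 7 lower, where 31.6% and 33.3% of all were. The 15 genes past 1.5-fold were Psma1, Psma3, Psma5, Psma7, Psmb1, Psmb2, Psmb3, Psmb5, Psmb6, Psmc3, Psmc5, Psmd4, Psmd10, Psme2b and Psmg2.

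**Figure D1:**
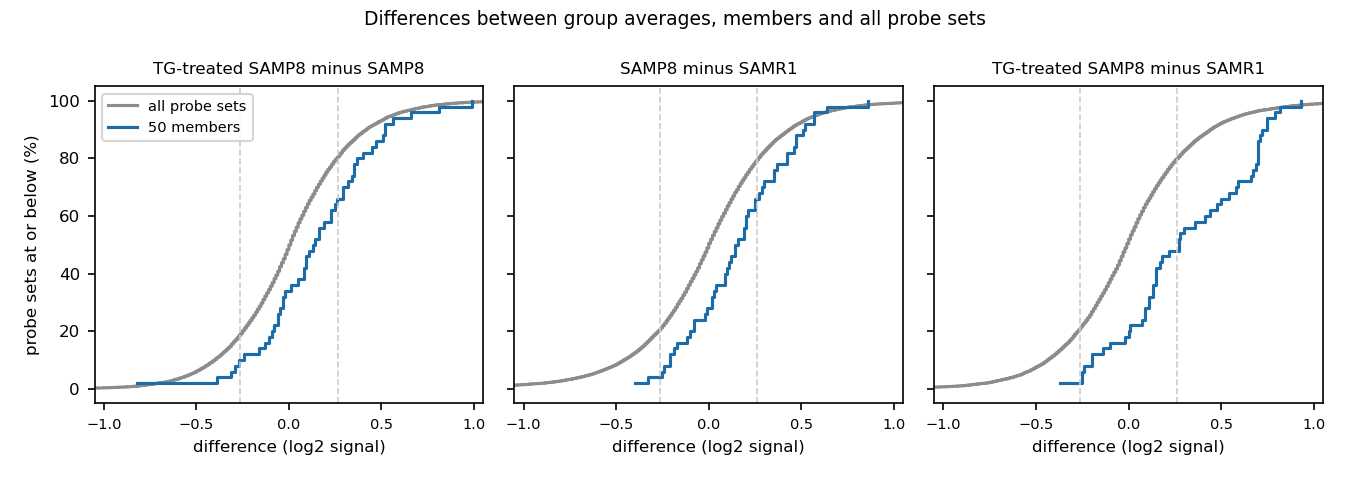
Cumulative percent of probe sets (y axis) at or below each difference of the authors' group averages (x axis, log2 signal) for the 50 proteasome genes (blue) and all 22206 probe sets (grey) in the 3 comparisons, with dashed lines at 1.2-fold in either direction. The blue curve lies to the right of the grey one over most of each panel, with medians of 0.135, 0.15 and 0.27 against 0.01, 0 and -0.01.

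Among the alpha ring genes, which form the gated outer rings of the core, 3 of 7 were higher in TG-treated than in nontreated SAMP8 and 1 was lower, with a median difference of 0.23, where 19.6% of all probe sets were higher and 18.5% lower. Psma2 averaged 9.89 in SAMR1, 9.64 in SAMP8 and 10.30 with TG, so that it stood 1.58-fold higher after TG. Psma5 averaged 8.29, 8.64 and 9.04 in the same order, and Psma7 averaged 7.89, 8.09 and 8.61. For both, SAMR1 was the lowest group and TG-treated SAMP8 the highest. Psma4 was the exception, with averages of 12.29 in SAMR1, 12.40 in SAMP8 and 12.09 with TG, or 1.24-fold lower after TG. That difference of -0.31 came within the limit, at -0.24, after centring by signal. Psma1 and Psma3 differed mostly between the strains. Psma1 averaged 10.12 in SAMR1, 10.59 in SAMP8 and 10.82 with TG. Psma3 averaged 9.45, 10.09 and 10.20, which is 1.56-fold higher in SAMP8 than in SAMR1 and a further 0.11 on the log2 scale after TG. Psma6 lay within the limit in both of these comparisons, at 0.14 in each.

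The beta ring genes, which form the inner rings, were the group with the highest median difference after TG. Of 7 genes, 6 were higher than in nontreated SAMP8 and 0 lower (median 0.45, from 0.16 to 0.99), and that median stayed between 0.41 and 0.51 under the other centrings tried. Against SAMR1, all 7 were higher in TG-treated SAMP8, by 0.54 to 0.93, and past the limit under each of these centrings as well. Psmb3, a structural subunit, averaged 8.70 in SAMR1, 8.37 in SAMP8 and 9.36 with TG. SAMP8 was thus the lowest group, 1.26-fold below SAMR1, and the TG-treated group was 1.99-fold above it, the greatest difference of the 50 genes in that comparison. Psmb1 averaged 11.88, 12.30 and 12.67, and Psmb2 averaged 8.23, 8.74 and 8.90, both with SAMR1 the lowest group. Psmb2 was the ring member that stayed within the limit after TG, and Psmb4 differed by 0.45 after TG and by 0.09 between the strains. Psmb4, Psmb6 and the ATPase gene Psmc3 are short genes, and after centring by signal and gene length their differences after TG went from 0.45, 0.47 and 0.56 to 0.255, 0.275 and 0.265.

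The 3 standard catalytic subunits were all higher after TG. Psmb5, which carries the chymotrypsin-like site, averaged 7.25 in SAMR1, 7.13 in SAMP8 and 7.94 with TG, or 1.75-fold higher after TG; its probe set also carries the name of a microRNA gene, Mir686. Psmb6, with the caspase-like site, averaged 9.45, 9.91 and 10.38, and at 0.93 it had the greatest difference between TG-treated SAMP8 and SAMR1. Psmb7, with the trypsin-like site, averaged 10.80, 11.09 and 11.38. SAMP8 lay between the other groups for Psmb6 and Psmb7 but was the lowest for Psmb5.

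**Figure D2:**
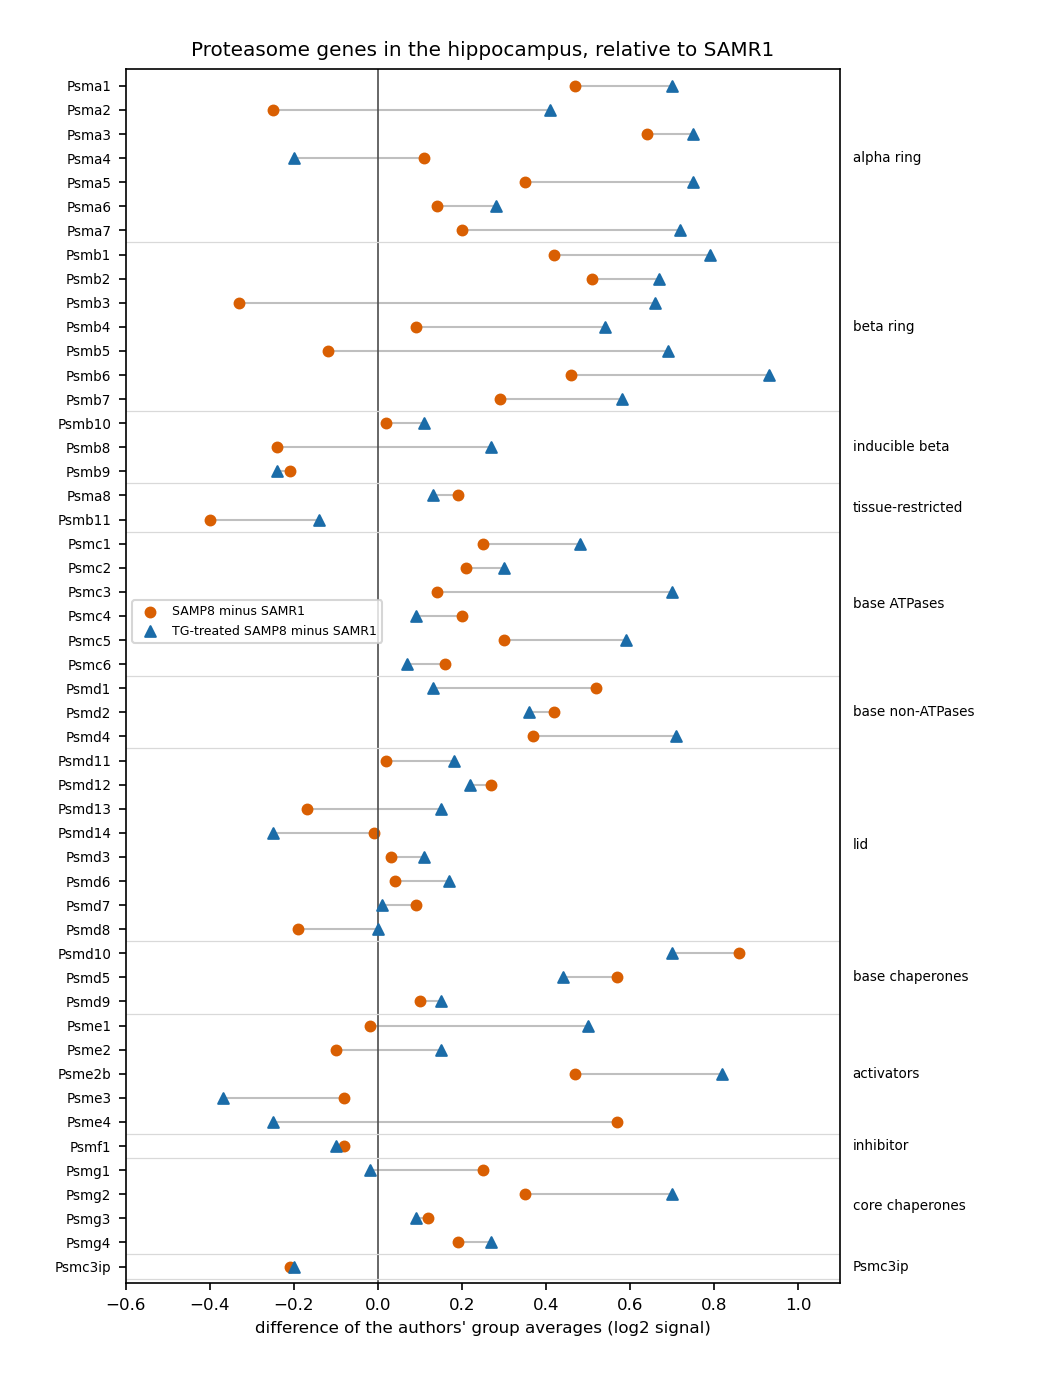
Difference of the authors' group averages from SAMR1 (x axis, log2 signal) for each of the 50 genes (rows, grouped by role), with circles for nontreated SAMP8, triangles for TG-treated SAMP8 and a grey line for the distance between them. All 7 beta ring triangles lie at 0.54 or above, while the 8 lid genes stay between -0.25 and 0.27.

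The inducible subunits take the places of these catalytic subunits in the immunoproteasome. Psmb8, which replaces Psmb5, averaged 4.59 in SAMR1, 4.35 in SAMP8 and 4.86 with TG, a difference of 0.51 after TG in which the SAMP8 average lay under the 4.40 that bounds the low-signal range. Psmb9, which replaces Psmb6, averaged 3.88, 3.67 and 3.64, and Psmb10, which replaces Psmb7, averaged 5.13, 5.15 and 5.24. Psmb9 lay in the low-signal range, and neither Psmb9 nor Psmb10 passed the limit in any comparison. Within each pair the difference of the inducible gene was below that of its standard counterpart after TG and between the strains. For Psmb8 minus Psmb5 the gap was -0.30 after TG and -0.12 between the strains. It was -0.50 and -0.67 for Psmb9 minus Psmb6, and -0.20 and -0.27 for Psmb10 minus Psmb7. The order after TG held under every centring, but that between the strains turned for Psmb8 (-0.15 against -0.18 for Psmb5 by signal, -0.16 against -0.21 by signal and gene length) and, by signal and gene length, for Psmb10 (0.165 against 0.11 for Psmb7).

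PA28, the interferon-inducible activator that opens the core without ubiquitin, is built of Psme1 and Psme2. Psme1 averaged 9.80 in SAMR1, 9.78 in SAMP8 and 10.30 with TG, so the strains differed by -0.02 and the TG-treated group was 1.43-fold higher than nontreated SAMP8 (0.52 on the log2 scale, and 0.325 after centring by signal and gene length). Psme2 averaged 8.90, 8.80 and 9.05, within the limit in each comparison as deposited; its difference of 0.25 after TG went to 0.32 after centring by signal and to 0.01 by signal and gene length. Taking the 5 immunoproteasome genes as a group (Psmb8, Psmb9, Psmb10, Psme1 and Psme2), 2 were higher after TG and 0 lower. Their median difference was 0.25, 0.38 without Psmb9, and 0.015 after centring by signal and gene length. Between the strains 0 of the 5 passed the limit (median -0.10).

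Psme2b, an intronless copy of Psme2, averaged 4.77 in SAMR1, 5.24 in SAMP8 and 5.59 with TG. It was 1.77-fold higher in TG-treated SAMP8 than in SAMR1, while Psme2 itself differed by 0.15 on the log2 scale. Near-identical copies can share probes, so the values of this pair are uncertain. Psme3, the nuclear relative of PA28 that interferon does not induce, averaged 12.17, 12.09 and 11.80. It was 1.22-fold lower in TG-treated than in nontreated SAMP8 (-0.29 on the log2 scale). After centring by signal that difference was -0.22, within the limit. Psme3 was also the gene that was lower in TG-treated SAMP8 than in SAMR1 past the limit.

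**Figure D3:**
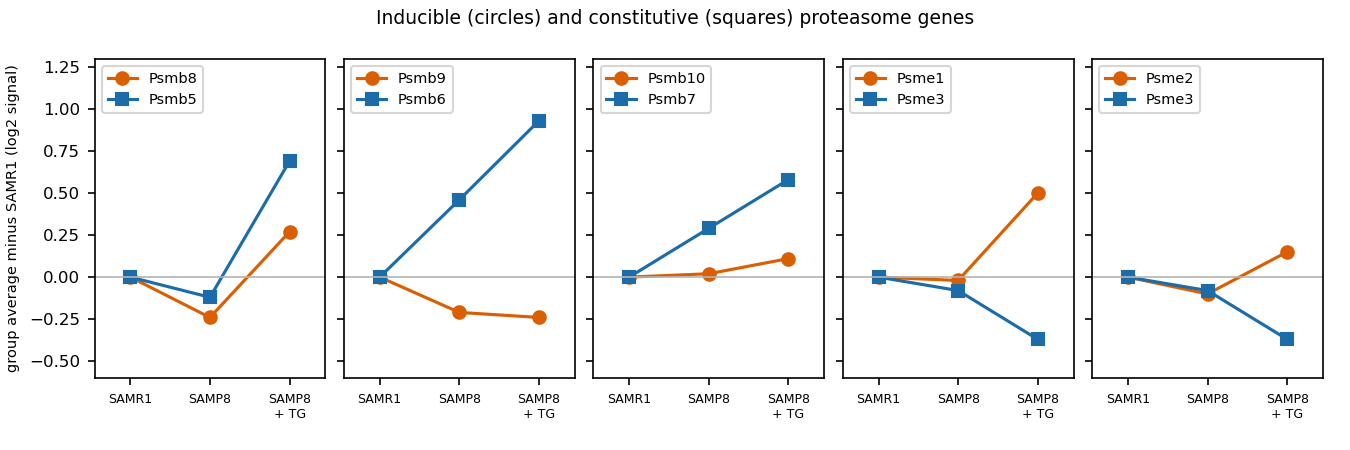
Authors' group average minus that of SAMR1 (y axis, log2 signal) in SAMR1, nontreated SAMP8 and TG-treated SAMP8 (x axis) for inducible genes (circles) beside their constitutive counterparts (squares), without error bars because the averages carry no spread. Psmb5, Psmb6 and Psmb7 end at 0.69, 0.93 and 0.58 in the TG-treated group and Psmb8, Psmb9 and Psmb10 at 0.27, -0.24 and 0.11, whereas Psme1 ends at 0.50 and Psme3 at -0.37.

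Psme4 encodes PA200, a large nuclear activator linked to histone degradation. It averaged 10.83 in SAMR1, 11.40 in SAMP8 and 10.58 with TG. It was therefore 1.48-fold higher in SAMP8 than in SAMR1 and 1.77-fold lower in TG-treated than in nontreated SAMP8, the most negative difference of the 50 genes after TG. Psmf1, which encodes the inhibitor PI31, averaged 9.60, 9.52 and 9.50, a range of 0.10 over the groups.

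In the base of the regulatory particle, the 6 ATPases unfold substrates and drive them into the core. After TG 2 of the 6 were higher and 0 lower (median 0.16). Between the strains the differences ran from 0.14 to 0.30, and 1 of the 6 (Psmc5) passed the limit, where 20.4% of all probe sets were higher. The strain median of 0.205 went to 0.075 after centring by signal and to 0.067 by signal and gene length. Psmc3 averaged 13.26 in SAMR1, 13.40 in SAMP8 and 13.96 with TG, the greatest difference after TG among the regulatory genes at 1.47-fold. Psmc5 averaged 8.98, 9.28 and 9.57. Psmc1, Psmc2, Psmc4 and Psmc6 stayed within the limit after TG, at 0.23, 0.09, -0.11 and -0.09.

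The non-ATPase subunits of the base, Psmd1, Psmd2 and Psmd4, each stood above SAMR1 in nontreated SAMP8, by 0.37 to 0.52. Psmd1, a scaffold to which the ubiquitin receptor Adrm1 binds, averaged 10.80 in SAMR1, 11.32 in SAMP8 and 10.93 with TG. It was the regulatory gene with the most negative difference after TG, at 1.31-fold lower (-0.39 on the log2 scale), which came within the limit, at -0.20, after centring by signal and gene length. Psmd2, the other large scaffold, which binds ubiquitin shuttles and the deubiquitinase Usp14, differed by 0.42 between the strains and by -0.06 after TG. Psmd4, a ubiquitin receptor, averaged 10.77, 11.14 and 11.48, and was higher in SAMP8 than in SAMR1 and higher again after TG, by 1.29-fold and 1.27-fold; its strain difference of 0.37 came within the limit, at 0.24, after centring by signal.

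The lid holds the deubiquitinase that strips ubiquitin chains, and its 8 genes found by the symbol rule showed small differences. Sem1, a further lid subunit outside that rule, was 2.11-fold higher after TG. It differed by -0.30 between the strains and by 0.78 between TG-treated SAMP8 and SAMR1. Of the 8 genes 1 was higher after TG (Psmd13, by 1.25-fold) and 0 lower. Between the strains 1 was higher in SAMP8 than in SAMR1 (Psmd12, at 0.27, just past the limit). After centring by signal Psmd12 came within the limit between the strains, at 0.14, whereas Psmd8 and Psmd13 were lower in SAMP8, at -0.32 and -0.29, and Psmd8 was higher after TG, at 0.275. Against SAMR1 0 of these 8 lid genes passed the limit in TG-treated SAMP8, whereas 13 of the 14 standard core genes did. After centring by signal Psmd14 passed it, at -0.29. The lid median between the strains was 0.025, and it turned to -0.10 after centring by signal and to -0.103 by signal and gene length. Psmd14, the deubiquitinase, averaged 10.58 in SAMR1, 10.57 in SAMP8 and 10.33 with TG. Psmd8 averaged 10.52, 10.33 and 10.52, the most negative strain difference among the regulatory genes. Psmd3, Psmd6, Psmd7 and Psmd11 differed by no more than 0.16 after TG and by no more than 0.09 between the strains.

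The chaperones that assemble the base, Psmd5, Psmd9 and Psmd10, are not parts of the finished particle. Psmd10 (gankyrin), which binds an ATPase and is also known as an oncoprotein, averaged 6.61 in SAMR1, 7.47 in SAMP8 and 7.31 with TG. At 1.82-fold it had the greatest strain difference of the 50 genes, and the TG-treated average stayed near that of nontreated SAMP8. Psmd5 was likewise higher in SAMP8, by 1.48-fold, and differed by -0.13 after TG. Psmd9 stayed within 0.15 in every comparison. The strain median of the 3 lay between 0.46 and 0.62 under every centring.

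**Figure D4:**
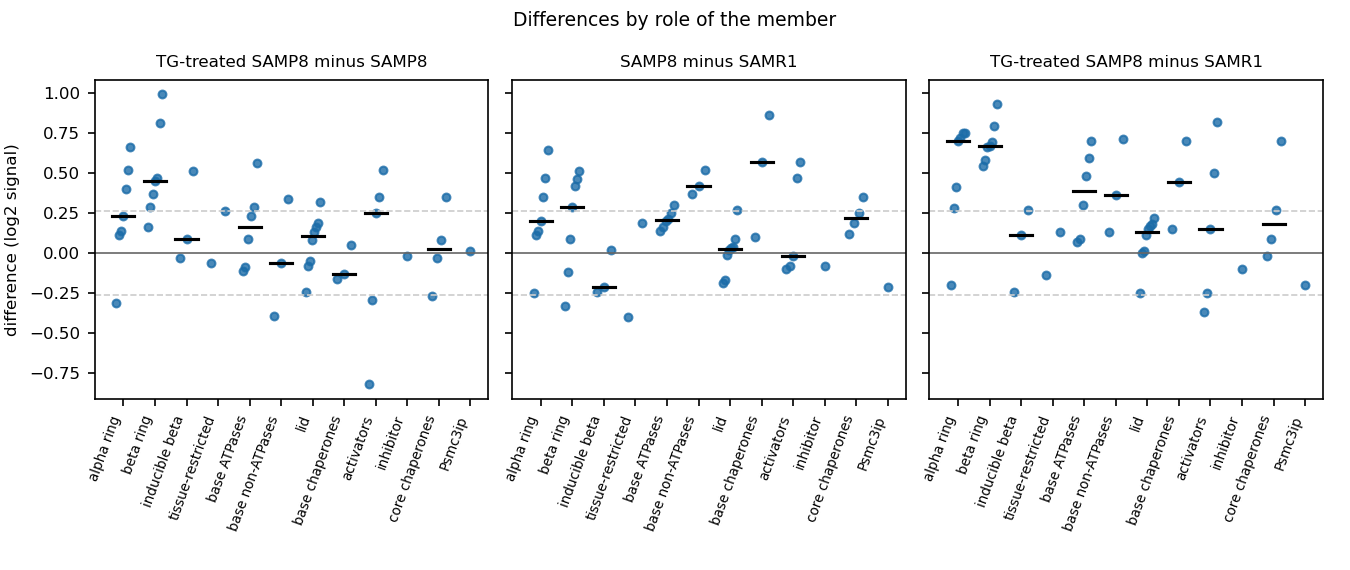
Difference of the authors' group averages (y axis, log2 signal) for each gene (points), grouped by role (x axis), in the 3 comparisons, with a bar at the median of roles that have 3 or more genes and dashed lines at 1.2-fold. After TG the beta ring has the highest median (0.45) and the base chaperones the lowest (-0.13), while between the strains the base chaperones have the highest (0.57).

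Core assembly begins with the chaperones Psmg1 to Psmg4, which build the alpha ring. Psmg2 averaged 8.49 in SAMR1, 8.84 in SAMP8 and 9.19 with TG, or 1.62-fold higher in the TG-treated group than in SAMR1. Psmg1, with which Psmg2 forms a dimer, averaged 8.08, 8.33 and 8.06. It was 1.21-fold lower after TG (-0.27 on the log2 scale, and -0.21, within the limit, after centring by signal). The partners thus differed in opposite directions in that comparison. Psmg3 averaged 3.69, 3.81 and 3.78 and Psmg4 averaged 3.79, 3.98 and 4.06, both in the low-signal range.

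Core genes restricted to other tissues gave low signal here. Psma8, an alpha subunit of testis, averaged 3.46 in SAMR1, 3.65 in SAMP8 and 3.59 with TG. Psmb11, a beta subunit of thymic epithelium, averaged 4.24, 3.84 and 4.10. Both lay in the low-signal range, and Psmb11 was nonetheless 1.32-fold lower in SAMP8 than in SAMR1, 1 of the 2 genes counted as lower in that comparison. Psmc3ip, the gene that is no proteasome gene, averaged 6.81, 6.60 and 6.61.

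A wider list covered 38 probe sets of genes that work with the proteasome without bearing these symbols. After TG 6 were higher and 6 lower (median 0.01), and between the strains 8 were higher and 6 lower (median 0.055). These counts lay near the background of 19.6% higher and 18.5% lower after TG and 20.4% each between the strains, so they are no result about the list. The 11 subunits and factors in it were 2 higher and 2 lower after TG. Sem1, a small lid subunit listed under its older symbol Shfm1, averaged 10.10 in SAMR1, 9.80 in SAMP8 and 10.88 with TG, which is 2.11-fold higher after TG. Pomp, the chaperone of beta ring maturation, averaged 9.95, 10.47 and 11.28, with 1.75-fold between TG-treated and nontreated SAMP8 and 2.51-fold between TG-treated SAMP8 and SAMR1. Adrm1, a ubiquitin receptor of the base, stayed at 8.27, 8.43 and 8.32.

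Zfand2a, a stress-induced gene whose protein associates with the proteasome, averaged 11.76, 12.46 and 11.67 and was thus highest in nontreated SAMP8. Nfe2l1, the transcription factor that raises subunit genes when proteasome activity is low, averaged 14.92 in SAMR1, 14.95 in SAMP8 and 14.97 with TG. Nfe2l1 and the other genes listed for the transcription of subunit genes (Nfe2l2, Ddi2 and Ngly1) stayed within the limit after TG. Nfe2l2 lay in the low-signal range. Between the strains Ddi2 was higher in SAMP8, at 0.44, and Ngly1 lower, at -0.30, while Nfe2l1 and Nfe2l2 stayed within the limit. Of 13 genes for ubiquitin and its shuttles, 2 were higher after TG and 2 lower, where 19.6% and 18.5% of all probe sets were.

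The 10 interferon and class I antigen presentation genes were followed because the immunoproteasome serves that pathway. After TG 2 were higher and 2 lower, and between the strains 3 were higher and 4 lower, where the shares of all probe sets were those given for the wider list. B2m, the light chain of class I molecules, averaged 9.16 in SAMR1, 10.61 in SAMP8 and 10.64 with TG. H2-K1 averaged 7.95, 7.27 and 7.46, and H2-D1 averaged 4.82, 4.22 and 4.31. The probe set of H2-D1 also carries the symbol H2-L, and its averages in SAMP8, nontreated and TG-treated, lay under the low-signal bound of 4.40. Tapbp, which loads peptides onto class I molecules, averaged 10.93, 10.25 and 10.64. Class I genes thus stood on both sides of zero between the strains, and these loci differ in allele between mouse strains, so an allele under a probe and an RNA level cannot be told apart. Tap2, a subunit of the peptide transporter, averaged 5.27, 5.40 and 5.86, whereas Tap1, the other subunit, averaged 5.81, 6.25 and 6.19. The interferon-responsive factor Irf1 differed by 0.01 after TG and by -0.34 between the strains.

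By genome position (GRCm38), the 50 genes lay on 16 chromosomes, with few close neighbours. Psmb9 (chr17:34182030-34187330) and Psmb8 (chr17:34198195-34201454) flank Tap1 (chr17:34187556-34197225) in the major histocompatibility region, and after TG they differed by -0.03 and 0.51. Psmb5 (chr14:54614120-54617995) and Psmb11 (chr14:54625310-54629556) lie 7.3 kb apart, and Psme1 (chr14:55578494-55581527) and Psme2 (chr14:55587440-55591101) 5.9 kb apart. Of the latter pair, Psme1 was past the limit after TG at 0.52, and Psme2, at 0.25, was just short of it.

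The differences moved with the genomic span of the genes, here as over the whole array. Across the 50 genes the Spearman correlation of the TG difference with span was -0.362, and over 21570 placed probe sets it was -0.247. For the strain difference it was 0.349 across the 50 genes and 0.181 over the placed probe sets. The genes share the same averages, so these are descriptions without a test. The 25 shorter genes (1.1 to 11.0 kb) had a median of 0.25 after TG with 11 higher and 3 lower, and the 25 longer ones (11.6 to 109.4 kb) a median of 0.09 with 6 higher and 2 lower. Psme4 (109.4 kb), Psmd14 (88.7 kb) and Psmd1 (74.7 kb), the 3 longest, were at -0.82, -0.24 and -0.39. The part of gene span in these differences was not tested beyond the centring by signal and gene length, after which 16 genes were higher and 4 lower following TG.

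**Figure D5:**
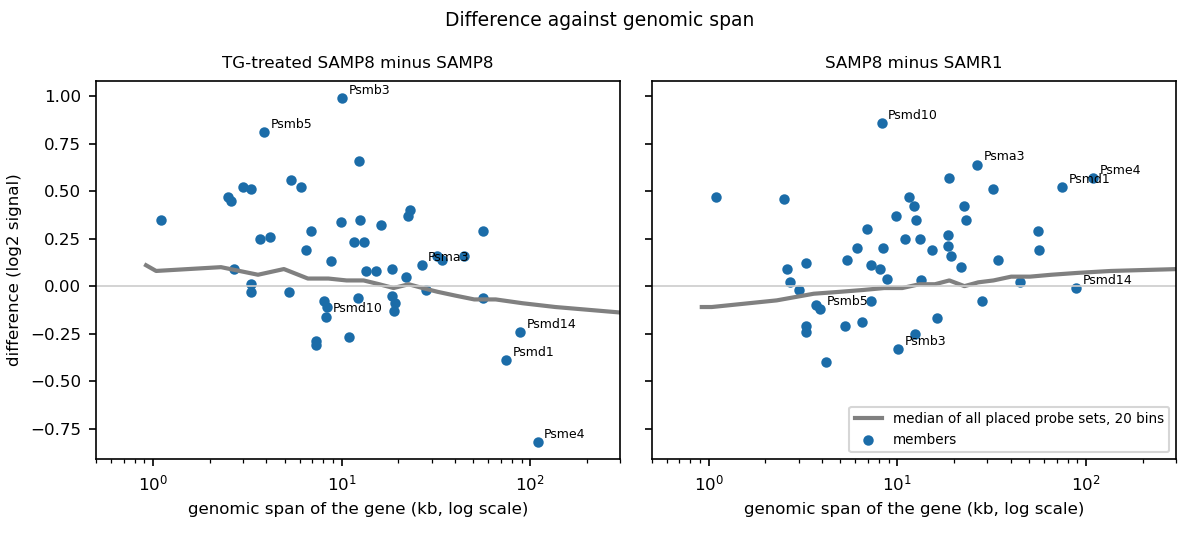
Difference of the authors' group averages (y axis, log2 signal) against the genomic span of the gene (x axis, kb, log scale) for TG-treated minus nontreated SAMP8 (left) and SAMP8 minus SAMR1 (right), with points for the 50 genes and a grey line for the median of all placed probe sets in 20 bins of span. The grey line falls with span on the left and rises on the right, and Psme4, the longest gene, sits at -0.82 and 0.57.

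Cell type markers also differed between the groups. The marker lists held 63 probe sets of 60 genes. Of these probe sets, 9 were higher and 23 lower after TG (median -0.14), where 19.6% of all were higher and 18.5% lower. Between the strains 29 were higher in SAMP8 and 10 lower (median 0.22), where 20.4% of all were higher and 20.4% lower. Of the whole list 3 probe sets lay in the low-signal range (Col3a1, Otx2 and Cd3e). Of the 8 hippocampal neuron markers, 5 were lower after TG and 0 higher (median -0.365), and 5 were higher in SAMP8 than in SAMR1 and 0 lower (median 0.375). Prox1, a marker of dentate granule cells, averaged 11.26, 11.85 and 11.00. The summed linear signal of the 8 was 1287623 in SAMR1, 1350439 in SAMP8 and 1312631 with TG, most of it from Camk2a, and without Camk2a it was 288710, 351526 and 313718.

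Markers of the thalamus, which borders the hippocampus, were higher in SAMP8 than in SAMR1 in 7 of 8 probe sets (median 0.58). After TG 2 were lower and 6 within the limit (median -0.07). The 8 probe sets cover 6 genes, since Rora is counted more than once, at 0.28, 0.63 and 0.53 between the strains. The thalamus sums were 3472, 4544 and 2932, and 1626, 2453 and 2193 without Prkcd. Choroid plexus markers were 4 higher and 1 lower of 6 between the strains (median 0.455), and 1 higher and 2 lower after TG (median -0.105). Their sums of 614, 978 and 1331 rested on Ttr, without which they were 264, 335 and 271. The 8 markers of microglia, the resident immune cells, were 3 higher and 4 lower after TG. Between the strains they were 3 higher and 3 lower, from -0.61 for C1qa to 1.51 for Aif1. Oligodendrocyte markers were 3 higher and 0 lower of 6 after TG, with sums of 485211, 437315 and 504197, or 198349, 213802 and 194607 without Mbp. Of 6 astrocyte markers 0 were higher and 1 lower after TG, and between the strains 2 were higher (Gfap at 0.95 and Slc1a3 at 0.62) and 0 lower. Endothelial markers summed to 818, 1135 and 937 (396, 468 and 364 without Flt1), meningeal ones to 2767, 2600 and 1878 (1149, 1464 and 1212 without Dcn), and those of blood to 2599, 3433 and 2766 (853, 1047 and 895 without Hbb-bs). The order of the groups by summed signal differed without the brightest gene for thalamus, choroid plexus, oligodendrocytes, endothelium and meninges. The part of cell composition in the proteasome differences was not tested.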

How the data were processed

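Hippocampal RNA was labelled with the WT PLUS kit and hybridized to Clariom S Mouse arrays. Per the methods, the authors normalized and summarized the arrays by SST-RMA in the Transcriptome Analysis Console. Its version is 4.0.1 in the series text, and the methods name another. The sample records name RMA and the Affymetrix Expression Console beside the Transcriptome Analysis Console. The authors deposited 2 tables of group averages as log2 signal, with 2 decimals. These tables also hold the authors' fold changes, p-values and adjusted p-values, which were not used here. Both tables give identical averages for SAMP8.

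Probe sets were picked by symbol, and averages were subtracted in Python 3.11.15 (pandas 2.3.3, numpy 2.4.6, scipy 1.17.1, matplotlib 3.10.9). The counting was tested on simulated data. No test across arrays was made, since only group averages were used, and the number of arrays limits the precision. Gene spans and positions are those of RefSeq genes on GRCm38.p6, matched by symbol (97.1% of probe sets). The limit on a difference was 1.2-fold, with 1.1-fold and 1.5-fold as alternatives, and the other alternatives left out the low-signal range (the lowest 25% by mean signal), centred the averages on their median, or centred the differences within 20 classes of signal. A centring within 10 classes of signal and 10 of genomic span was chosen after seeing the data. The members, the wider list of partner genes and the marker lists were chosen with earlier results of these data known.

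Every gene found by the symbol rule is named. All 3 averages are given for the immunoproteasome genes and their counterparts, for genes past 1.5-fold in any comparison, for the highest and lowest difference of each class, for Psmc3ip, and in the wider list for genes past 1.5-fold and Pomp, Adrm1, Sem1 and Nfe2l1. Some of the wider list's genes under this rule are not reported here. Alleles that differ between the strains under a probe cannot be told apart from RNA levels, and near-identical copies or pseudogenes of proteasome genes may share probes.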

Additional observations from a re-analysis of the deposited data

How the results depend on the processing

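Group averages carry no spread and the authors' tests were not used, so no difference was set against the variation between mice. No paired analysis was possible because the group averages used carry no replicate numbers, and leaving out each replicate was not run for the same reason. The direction of the median over the 50 genes held in each comparison and under each alternative, with ranges of 0.105 to 0.195 after TG, 0.06 to 0.20 between the strains and 0.218 to 0.30 for TG-treated SAMP8 against SAMR1, and 0 genes past the limit changed sign. Of the 150 single differences, 36 moved by 0.1 or more after centring by signal, 62 after centring by signal and span, and 0 after centring on the median.

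Counts followed the fold limit. At 1.1-fold, 13 of the 38 probe sets of the wider list were higher after TG, where 32.4% of all probe sets were. Between the strains, 27 proteasome genes were higher and 8 lower, and 14 of the wider list were higher. Of all probe sets 33.0% were higher and 32.5% lower there. For TG-treated SAMP8 against SAMR1, 7 proteasome genes were lower, and 17 of the wider list were higher and 11 lower. Of all probe sets 31.6% were higher and 33.3% lower in that comparison. At 1.5-fold, 3 proteasome genes were higher and 1 lower after TG, as were 3 and 1 of the wider list. Of all probe sets 4.48% were higher and 3.74% lower. Between the strains the counts were 2 and 0, and 2 and 3, where 5.0% and 6.08% of all were. For TG-treated SAMP8 against SAMR1 they were 15 and 0, and 5 and 0, where 5.62% and 4.83% of all were.

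Without the low-signal probe sets, the immunoproteasome median after TG was 0.38, 1 proteasome gene was lower between the strains, and the assembly median against SAMR1 was 0.34. After centring by signal, 2 proteasome genes were lower after TG, 5 between the strains and 3 in TG-treated SAMP8 against SAMR1, and the strain medians were 0.06 for regulatory genes and -0.18 for activators. After centring by signal and span, the counts of lower genes were 4 between the strains and 2 against SAMR1. The immunoproteasome median after TG was then 0.015, the strain medians were 0.04 for the core and 0.067 for regulatory genes, and the activator median against SAMR1 was -0.08. The cause of these moves was not tested. Of the 17 genes higher between the strains, 11 remained past the limit under either class centring, compared with 17 and 15 of the 17 higher after TG.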
